A study of Mus musculus with 6 samples.

Results

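The genes described here encode proteins of DNA replication and mitosis: 20 genes that act at the entry into S phase (G1/S genes) and 17 that act from G2 to the end of mitosis (G2/M genes). A gene was measured where a probe set of the array carried its symbol and no other, and where several did, the one brightest on average was used. By this rule 35 of the 37 genes were measured, 19 for G1/S and 16 for G2/M, among 22180 genes in all. Ccne2 shared its probe set with another gene, and Ccnb1 is not analysed here. Rrm2 is the 1 measured gene of the 35 with more than 1 probe set.

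RNA came from mouse embryonic stem cells infected with a lentivirus that encoded an shRNA against Chd4, an shRNA against Mbd3 or a control shRNA. CHD4 is the remodeling ATPase and MBD3 a scaffold protein of the NuRD complex, which moves nucleosomes and deacetylates histones. Each of the 3 lines was taken at day 4 of neural differentiation, after the cells were re-aggregated in medium with serum replacement, and at day 0, as adherent stem cells in serum with leukemia inhibitory factor (LIF). The 6 groups are thus Chd4 shRNA at day 4, Mbd3 shRNA at day 4, control shRNA at day 4, Chd4 shRNA at day 0, Mbd3 shRNA at day 0 and control shRNA at day 0. The labels name neither the stem cell line nor the hairpins, and do not say whether a sample was 1 culture or a pool. Each group holds 1 array, so a difference between 2 arrays has no replicate check and no test.

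Cells license replication origins in G1 by loading the MCM helicase with the help of ORC, CDC6 and CDT1, and then fire them under cyclin E and CDK2. Activating E2F factors switch on many of these genes at G1/S. The genes of mitosis are switched on later by MYB and FOXM1 complexes that act through the CHR element, and many also hold CCAAT boxes. Embryonic stem cells are known for a short G1 phase and for high cyclin E activity through most of the cycle, and the cycle lengthens as they differentiate.

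Promoters of both groups are shown because they hold these elements in unequal shares. The windows run from 250 bases before to 50 bases after the transcription start, as RefSeq gives it on GRCm38.p6. Below are 150 bases before to 30 after the start for 3 G1/S and 3 G2/M genes, those with the largest difference in any of the 7 comparisons of 2 arrays described further on, among members whose window holds an E2F-type or CHR-type match. Capitals mark matches, on either strand, to an E2F-type motif (TTTCCCGC, TTTGGCGC, TTTCGCGC or TTTGCCGC), to a CHR-type motif (TTTGAA or TTCGAA) or to CCAAT. A match on the opposite strand reads as its reverse complement, as in GCGGGAAA of Cdc6 and ATTGG of Orc1. Orc1 lies at chr4:108579304-108579483 (plus strand), Cdc6 at chr11:98908001-98908180 (plus), E2f3 at chr13:29986034-29986213 (minus), Cdc20 at chr4:118437314-118437493 (minus), Aurka at chr2:172370541-172370720 (minus) and Ccnb2 at chr9:70421525-70421704 (minus).
Orc1: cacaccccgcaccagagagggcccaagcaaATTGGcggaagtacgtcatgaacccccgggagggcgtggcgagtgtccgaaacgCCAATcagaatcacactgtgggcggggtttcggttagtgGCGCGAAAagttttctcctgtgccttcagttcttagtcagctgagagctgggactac
Cdc6: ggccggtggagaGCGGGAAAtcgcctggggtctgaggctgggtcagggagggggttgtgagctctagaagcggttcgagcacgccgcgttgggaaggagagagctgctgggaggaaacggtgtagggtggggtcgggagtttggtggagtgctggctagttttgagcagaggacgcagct
E2f3: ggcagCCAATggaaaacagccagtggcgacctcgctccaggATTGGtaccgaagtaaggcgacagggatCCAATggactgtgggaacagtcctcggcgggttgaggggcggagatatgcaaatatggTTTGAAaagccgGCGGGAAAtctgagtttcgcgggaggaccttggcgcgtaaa
Cdc20: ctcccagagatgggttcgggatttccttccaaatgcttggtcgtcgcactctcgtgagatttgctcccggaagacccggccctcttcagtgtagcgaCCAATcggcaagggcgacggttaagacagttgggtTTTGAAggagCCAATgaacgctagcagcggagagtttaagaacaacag
Aurka: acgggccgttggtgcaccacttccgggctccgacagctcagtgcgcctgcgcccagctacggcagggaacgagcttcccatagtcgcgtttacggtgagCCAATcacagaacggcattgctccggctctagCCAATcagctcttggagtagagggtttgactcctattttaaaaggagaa
Ccnb2: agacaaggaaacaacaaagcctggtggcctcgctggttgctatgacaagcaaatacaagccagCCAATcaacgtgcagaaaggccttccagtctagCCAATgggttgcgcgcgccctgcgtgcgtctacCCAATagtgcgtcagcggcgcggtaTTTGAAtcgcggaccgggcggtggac

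In the Orc1 stretch the E2F-type match begins 27 bases before the start, and in E2f3 it begins 11 bases before it. E2f3 also holds a CHR-type match, 23 bases before the start. Cdc20 has a CHR-type match 18 bases before the start, between a pair of CCAAT boxes, and Ccnb2 has one at base 5 after the start, downstream of 3 CCAAT boxes. The CHR-type match of Aurka begins at base 33 after the start, outside the stretch printed, and its stretch shows a pair of CCAAT boxes. An E2F-type match stood in the window of 11 of 18 G1/S genes with an entry (61.1%) and in 1 of 15 G2/M genes (6.67%), which was Cdk1. Of all 27025 genes with a window, 2.6% held one, and of the 10211 genes bright enough for the fit described further on, 4.68%. A CHR-type match stood in 12 of 15 G2/M windows (80.0%) and in 4 of 18 G1/S windows (22.2%), against 21.7% of all genes. CCAAT was found in 14 of 15 G2/M windows (93.3%) and 13 of 18 G1/S windows (72.2%), against 41.1% of all genes. The window of Ccne1, the member with the largest knockdown difference, held none of these motifs. The matches are runs of letters, and 1 pair of matches of different kinds among the members shares a base. Mcm4, Ccne2, Ccna2 and Aurkb had no entry.

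**Figure D1:**
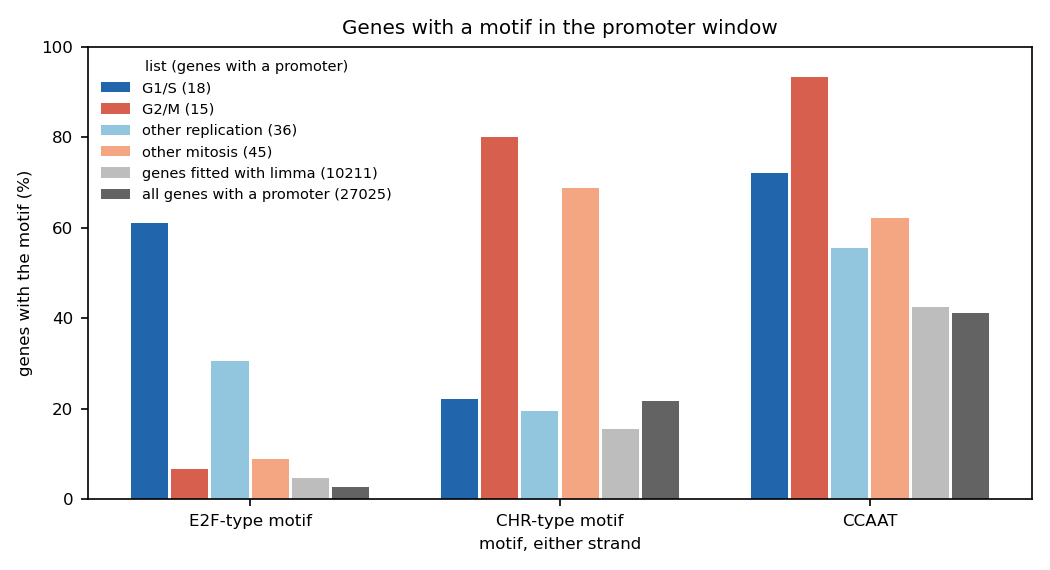
Share of genes, in percent, whose promoter window of 300 bases holds an E2F-type, a CHR-type or a CCAAT match on either strand. Bars stand for the 2 member lists, for 2 further lists of replication and mitosis genes, for the genes fitted with limma and for all genes with a window. The E2F-type bar is highest for G1/S genes (61.1%) and the CHR-type bar for G2/M genes (80.0%).

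The array medians ran from 39.6 to 41.4 on the linear intensity scale, and all 35 measured members exceeded the median on each array. The shRNA targets were lower than control in their own line: Chd4 stood at 71.3% of control at day 4 and 29.8% at day 0 in the Chd4 line, and Mbd3 at 75.5% at day 4 and 43.0% at day 0 in the Mbd3 line. Both targets were thus nearer to control at day 4. The cell type markers differed strongly between arrays. Summed intensities of 12 pluripotency markers were 10283 in the Chd4 line, 9518 in the Mbd3 line and 5001 in control at day 4, and between 14367 and 15344 in the 3 lines at day 0. Summed intensities of 12 neural progenitor markers were 1369, 2023 and 9312 on the Chd4, Mbd3 and control arrays at day 4, and between 771 and 967 at day 0. Against control at day 4, all 12 neural progenitor markers were at least 1.5-fold lower in each knockdown, and 11 of 12 pluripotency markers in the Chd4 line and 10 of 12 in the Mbd3 line were at least 1.5-fold higher. Beside this, the 12 neuron markers summed to 1705, 1491 and 3522 on the same 3 day 4 arrays, and to 2330, 1446 and 2326 at day 0. Of these sums, Stmn2, singled out after its values were seen, gave 904, 518 and 1156 at day 4, and 1392, 761 and 1517 at day 0. The 9 mesoderm and endoderm markers summed to 534, 567 and 1195 at day 4, and to 515, 486 and 484 at day 0. The 7 trophectoderm markers summed to 472, 610 and 356 at day 4, and to 636, 790 and 760 at day 0. The 6 fibroblast markers summed to between 295 and 415 on all 6 arrays. The mesoderm and endoderm sums at day 4 turn on Cxcr4, singled out after its values were seen, with 123, 162 and 802 on the 3 arrays. Over the 6 markers compared in each line, the median difference from control at day 4 was 0.17 in both knockdowns, opposite in sign to the sums. The 6 were not the same genes, as Gata6 was compared only in the Chd4 line and Mixl1 only in the Mbd3 line. The lowest value of any probe set was 17.4, so no marker could be at 0. Elf5, Postn, Mesp1 and Neurod1 were below the array median on all 6 arrays. The part of this cell mixture in the differences described next was not tested, and in bulk RNA fewer cycling cells and less RNA per cell cannot be told apart.

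The 35 members differed less between arrays than all genes in the comparisons with the most differing genes, but not in all 7. The summed intensity of the members was 25256 in the Chd4 line, 23563 in the Mbd3 line and 24591 in control at day 4. At day 0 it was 26820, 26053 and 27368 in the same order of lines. A gene entered a comparison where the brighter of its arrays reached that array's median, and it was counted as higher or lower where the difference was at least 1.5-fold, which is 0.58 on the log2 scale. Each of the 35 members entered all 7 comparisons. The median size of the log2 difference was 0.20 for the members and 0.31 for all genes in the Chd4 line against control at day 4, and 0.17 and 0.26 in the Mbd3 line. It was 0.23 for the members and 0.34 for all genes between day 4 and day 0 in control cells. In the comparisons with fewer called genes the members were closer to the rest, for example 0.19 and 0.18 for Chd4 against control at day 0.

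**Figure D2:**
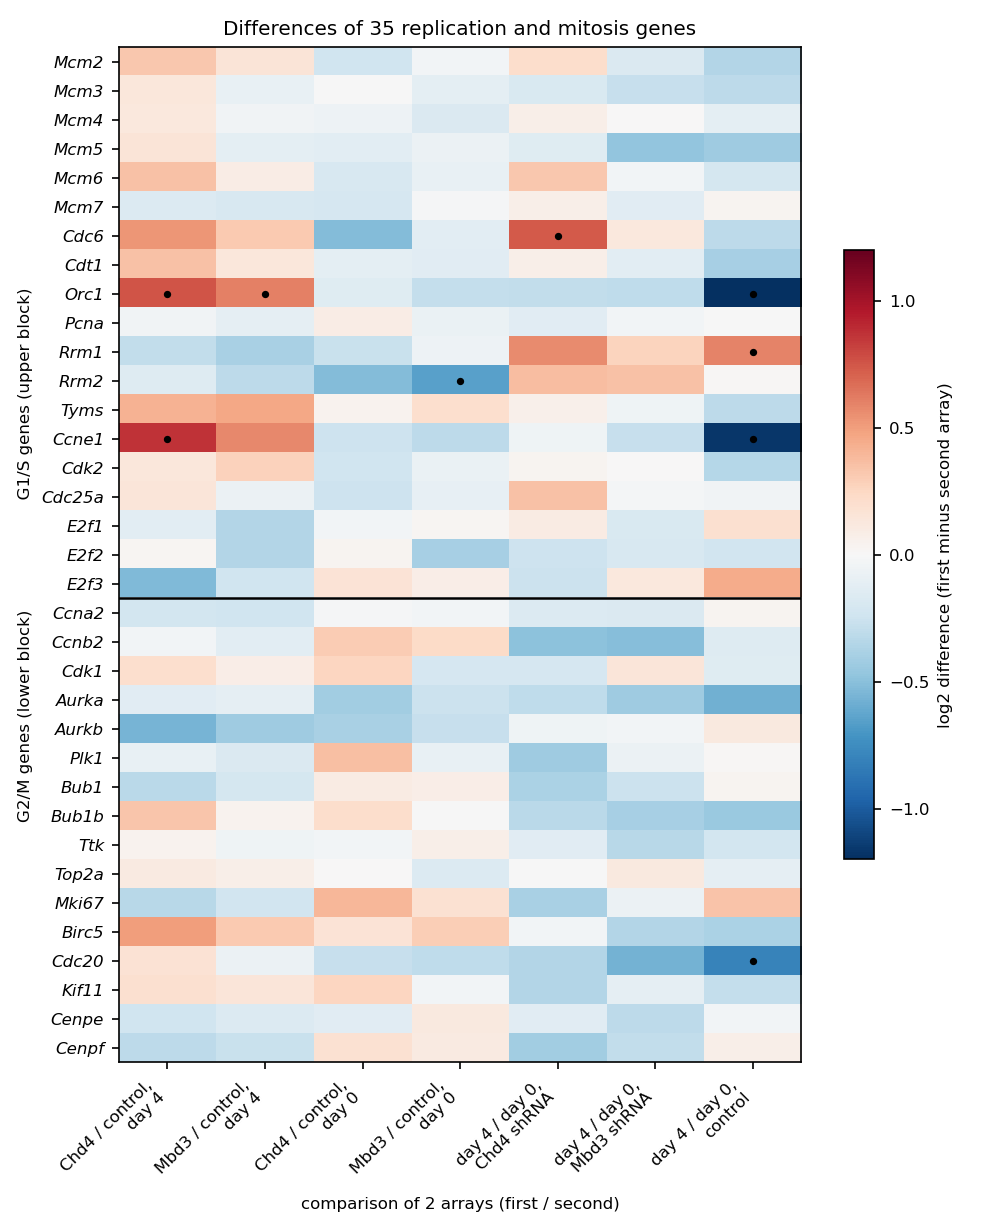
Log2 difference of each measured gene in the 7 comparisons of 2 arrays, G1/S genes above the line and G2/M genes below it. Red is higher and blue lower on the first array named, and a dot marks a difference of at least 1.5-fold. Dots stand on Orc1, Ccne1, Cdc6, Rrm1, Rrm2 and Cdc20, 9 in all.

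Among the G1/S genes, the largest difference between a knockdown and control belonged to Ccne1, which encodes cyclin E1, the partner of CDK2 that drives entry into S phase. Ccne1 had an intensity of 701 in the Chd4 line, 572 in the Mbd3 line and 383 in control at day 4, and of 727, 692 and 862 on the Chd4, Mbd3 and control arrays at day 0. Control cells at day 4 were the lowest of the 6 arrays and control cells at day 0 the highest. The log2 difference between day 4 and day 0 was -0.05 in the Chd4 line, -0.27 in the Mbd3 line and -1.17 in control. Against control at day 4, Ccne1 was 0.87 higher in the Chd4 line and 0.58 higher in the Mbd3 line, the second just short of 1.5-fold at 1.49-fold. Against control at day 0 it was lower in both, by -0.25 and -0.32. Cdk2, the kinase that cyclin E activates, had log2 differences of 0.03, 0.01 and -0.35 between days in the Chd4, Mbd3 and control lines.

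Orc1, the subunit of the origin recognition complex that marks origins for licensing, had the same order of arrays at day 4. Its intensity was 174 in the Chd4 line, 158 in the Mbd3 line and 104 in control at day 4, and 214, 195 and 237 at day 0. The control array was the lowest of the 3 at day 4 and the highest of the 3 at day 0. Orc1 was 0.75 and 0.61 higher on the log2 scale than control at day 4 in the Chd4 and Mbd3 lines. It was lower at day 4 than at day 0 in all lines, by -0.30 in each knockdown and by -1.19 in control. The comparisons of both knockdowns with control at day 4, and of day 4 with day 0 in control, all use the control array of day 4. Those of both knockdowns with control at day 0 all use the control array of day 0. Agreement of both knockdowns against control on a day is thus not independent.

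Cdc6, which loads the MCM helicase together with ORC, went in opposite directions between days in the Chd4 and control lines. Its intensity was 573 in the Chd4 line, 494 in the Mbd3 line and 398 in control at day 4, and 345, 453 and 493 at day 0. The Chd4 line was the highest of the lines at day 4 and the lowest at day 0. The log2 difference between the days was 0.73 in the Chd4 line, 0.13 in the Mbd3 line and -0.31 in control. Against control, Cdc6 in the Chd4 line was at 0.53 at day 4 and at -0.52 at day 0, both under 1.5-fold. Cdt1, the other MCM loading factor, differed by 0.07, -0.13 and -0.40 between days in the Chd4, Mbd3 and control lines.

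The 6 MCM genes, the subunits of the replicative helicase, all stayed within 1.5-fold in all 7 comparisons. Their intensities lay between 815 (Mcm6, control at day 4) and 1615 (Mcm3, control at day 0). In the Chd4 line against control at day 4, 5 of the 6 were higher, from 0.13 (Mcm4, Mcm3) to 0.35 (Mcm6), and Mcm7 was at -0.17. In the same line against control at day 0, 5 were lower, from -0.06 (Mcm4) to -0.24 (Mcm2), and Mcm3 was level with control. In the Mbd3 line the same genes lay between -0.19 and 0.15 at day 4 and between -0.17 and -0.02 at day 0. Of the day differences of MCM genes, that of Mcm5 was the largest in the Mbd3 line (-0.47) and in control (-0.43) and was at -0.15 in the Chd4 line.

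Pcna, the sliding clamp of the replicative polymerases, was the flattest of the genes given array by array. It had 1491 in the Chd4 line, 1420.3 in the Mbd3 line and 1532 in control at day 4, and 1633, 1456 and 1536 at day 0. Rrm1 and Rrm2 encode the large and the small subunit of ribonucleotide reductase, which makes deoxyribonucleotides. Rrm1 had 1055 in the Chd4 line, 988 in the Mbd3 line and 1291 in control at day 4, and 711, 819 and 853 at day 0. All lines were higher at day 4, by 0.57, 0.27 and 0.60 on the log2 scale in the Chd4, Mbd3 and control lines, and control was the highest of the lines on both days. Rrm2 had 563 in the Chd4 line, 505 in the Mbd3 line and 628 in control at day 4, and 435, 396 and 624 at day 0. Both knockdowns lay below control at day 0, by -0.52 for Chd4 and -0.65 for Mbd3, while control cells were nearly equal on the 2 days (0.01). With the mean of both Rrm2 probe sets, these day 0 differences shrank to -0.27 and -0.37. Tyms, the thymidylate synthase, was 0.42 and 0.47 higher than control at day 4 in the Chd4 and Mbd3 lines.

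Of the regulators at G1/S, Cdc25a, a phosphatase that activates CDK2, was within 0.35 of 0 in every comparison. The activating factors E2f1, E2f2 and E2f3 had intensities of 108 to 138, 51.3 to 78.8 and 213 to 308 over the 6 arrays. E2f3 was 0.44 higher at day 4 than at day 0 in control and lower in the Chd4 line (-0.25), so that it stood at -0.53 in the Chd4 line against control at day 4. E2f2 lay below control in the Mbd3 line on both days, at -0.36 at day 4 and -0.39 at day 0.

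**Figure D3:**
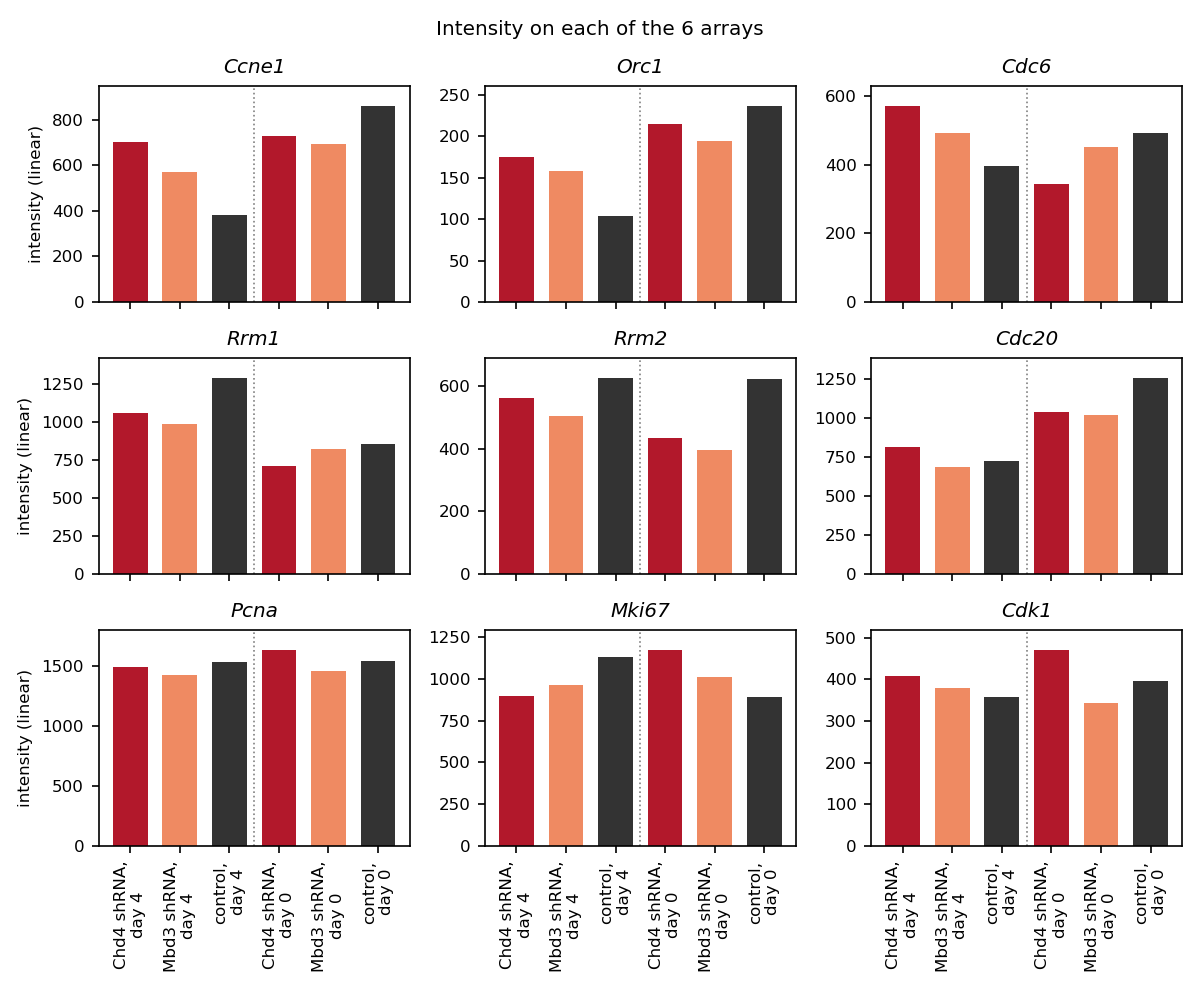
Intensity on a linear scale, from 0, on each of the 6 arrays for the 6 members with a difference of at least 1.5-fold and for Pcna, Mki67 and Cdk1. Each bar is 1 array, with day 4 left of the dotted line and day 0 right of it. For Ccne1 and Orc1 the control array at day 4 (383 and 104) is the lowest of the 6, while Pcna lies between 1420.3 and 1633 on all of them.

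Counted over the G1/S list, 2 of 19 genes (Ccne1 and Orc1) were higher and 0 lower in the Chd4 line against control at day 4, where 11.1% of all genes compared were higher and 15.4% lower. In the Mbd3 line at day 4, 1 of 19 (Orc1) was higher and 0 lower, beside 8.04% and 13.2% of all genes. At day 0, 0 of 19 were called in the Chd4 line, beside 4.03% higher and 3.56% lower, and 1 of 19 (Rrm2) was lower in the Mbd3 line, beside 2.95% higher and 2.04% lower. From the day comparisons, Cdc6 was higher in the Chd4 line at day 4, beside 6.21% of all genes higher and 4.27% lower. No G1/S gene was called between days in the Mbd3 line, beside 5.69% and 4.76%. In control cells Rrm1 was higher and Orc1 and Ccne1 lower, beside 17.3% and 11.2%. Except for the 1 gene lower at day 0 in the Mbd3 line, these counts are near to or below the shares of all genes.

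The direction of smaller differences varied with line and day. In the Chd4 line, 6 of 19 G1/S genes were below control by any amount at day 4 (53.9% of all genes compared) and 15 of 19 at day 0 (51.3%). The list median was 0.13 at day 4 and -0.14 at day 0, with -0.04 and -0.01 for all genes. In the Mbd3 line, 11 of 19 were below control at day 4 (55.9% of all genes) and 16 of 19 at day 0 (50.3%), with medians of -0.07 and -0.09. Between day 4 and day 0, 7 of 19 were lower in the Chd4 line (51.5% of all genes), 13 in the Mbd3 line (54.3%) and 14 in control (49.8%), with medians of 0.07, -0.05 and -0.23. With arrays centred on their medians, 14 of 19 were below control in the Mbd3 line at day 0 (43.2% of all genes, list median -0.05). Between days, 15 were then lower in the Mbd3 line (58.0%) and 12 in control (44.4%), with medians of -0.08 and -0.16.

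None of the 16 G2/M genes differed by 1.5-fold between a knockdown and control on either day, where 2.04% to 15.4% of all genes compared did in 1 direction. In the Chd4 line at day 4, 1 was lower with 16 subtracted from intensities or with arrays centred on their medians. The mitotic regulators are ordered here by their place in mitosis, beginning with the kinase that drives it. Cdk1, the kinase of mitotic entry, had 409 in the Chd4 line, 378 in the Mbd3 line and 357 in control at day 4, and 472, 343 and 395 at day 0. The Chd4 line was the highest of the lines on both days, by 0.20 and 0.26 against control. Its partner Ccnb2, cyclin B2, was lower at day 4 than at day 0 in the Chd4 line (-0.49) and the Mbd3 line (-0.51) and nearly level in control (-0.16). Ccna2, cyclin A2, lay between -0.24 and 0.03 in all comparisons.

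Of the mitotic kinases, Aurka, which acts on centrosomes and the spindle poles, was lower at day 4 than at day 0 in all lines, at -0.30 in the Chd4 line, -0.43 in the Mbd3 line and -0.58 in control, the last just short of 1.5-fold. Aurkb, the kinase of the chromosomal passenger complex, was lower than control in both knockdowns on both days. Its log2 difference was -0.55 at day 4 and -0.39 at day 0 in the Chd4 line, and -0.43 and -0.28 in the Mbd3 line. Birc5, which encodes survivin of the same complex, differed the other way, at 0.50 and 0.16 in the Chd4 line and 0.32 and 0.29 in the Mbd3 line. For Aurkb and Birc5, both lines were set against the same control array on each day. Plk1, a kinase with roles from entry to cytokinesis, was 0.36 above control in the Chd4 line at day 0 and -0.09 at day 4.

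The spindle checkpoint genes Bub1, Bub1b and Ttk hold back anaphase until chromosomes are attached. In the knockdowns against control, Bub1 lay at -0.32 and -0.21 at day 4 in the Chd4 and Mbd3 lines, and Bub1b at 0.33 and 0.04, while Ttk stayed within 0.07 of 0 in all 4 of these comparisons. Cdc20, which activates the anaphase-promoting complex once the checkpoint is met, was the 1 G2/M gene of the 16 with a difference of 1.5-fold. It had 813 in the Chd4 line, 687 in the Mbd3 line and 723 in control at day 4, and 1039.9, 1019 and 1259 at day 0. Each line was lower at day 4 than at day 0, by -0.35 in the Chd4 line, -0.57 in the Mbd3 line and -0.80 in control. The highest of the 6 arrays was control at day 0, and no line at day 4 reached any line at day 0.

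Mki67, the proliferation antigen that coats mitotic chromosomes, had 899 in the Chd4 line, 963 in the Mbd3 line and 1133 in control at day 4, and 1177, 1012 and 892 at day 0. The order of the lines at day 4 was the reverse of that at day 0. It was lower at day 4 in the Chd4 line (-0.39) and near 0 in the Mbd3 line (-0.07), and higher in control (0.34). Cenpf and Cenpe, proteins of the kinetochore, were at -0.31 and -0.24 in the Chd4 line and -0.27 and -0.17 in the Mbd3 line against control at day 4. Kif11, the motor that separates spindle poles, and Top2a, the topoisomerase that untangles sister chromatids, stayed between -0.36 and 0.26 in all comparisons.

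Between day 4 and day 0, 16 of 16 G2/M genes were lower by any amount in the Chd4 line, 15 of 16 when arrays were centred on their medians, and 14 of 16 were lower in the Mbd3 line. In control cells 10 of 16 were lower. Of all genes compared, 51.5% were lower in the Chd4 line, 54.3% in the Mbd3 line and 49.8% in control. The list medians were -0.31 in the Chd4 line, -0.28 in the Mbd3 line and -0.13 in control, where all genes had -0.01, -0.03 and 0.00. With arrays centred, 9 of 16 were lower in control (44.4% of all genes) and the median there was -0.06. No G2/M gene but Cdc20 in control passed 1.5-fold, and the range in the Chd4 line was -0.49 (Ccnb2) to -0.01 (Top2a). Of all genes, 4.27%, 4.76% and 11.2% were at least 1.5-fold lower in the Chd4, Mbd3 and control lines. The shares of genes higher were 6.21%, 5.69% and 17.3%. With 16 genes, the lack of calls in the knockdown lines is near these shares. The 3 comparisons share no array. Whether the lines differ in this could not be tested with 1 array a group. Against control, 9 of 16 G2/M genes were lower in the Chd4 line at day 4 and 6 of 16 at day 0 (medians -0.06 and 0.13). Of all genes, 53.9% and 51.3% were lower in these comparisons. In the Mbd3 line 11 of 16 G2/M genes were lower at day 4 and 9 of 16 at day 0 (medians -0.12 and -0.02). The shares of all genes were 55.9% and 50.3%. After centring, the day 0 count was 6 of 16 with a median of 0.02, beside 43.2% of all genes. The counts of 9 of 16 against control are near the shares of all genes.

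**Figure D4:**
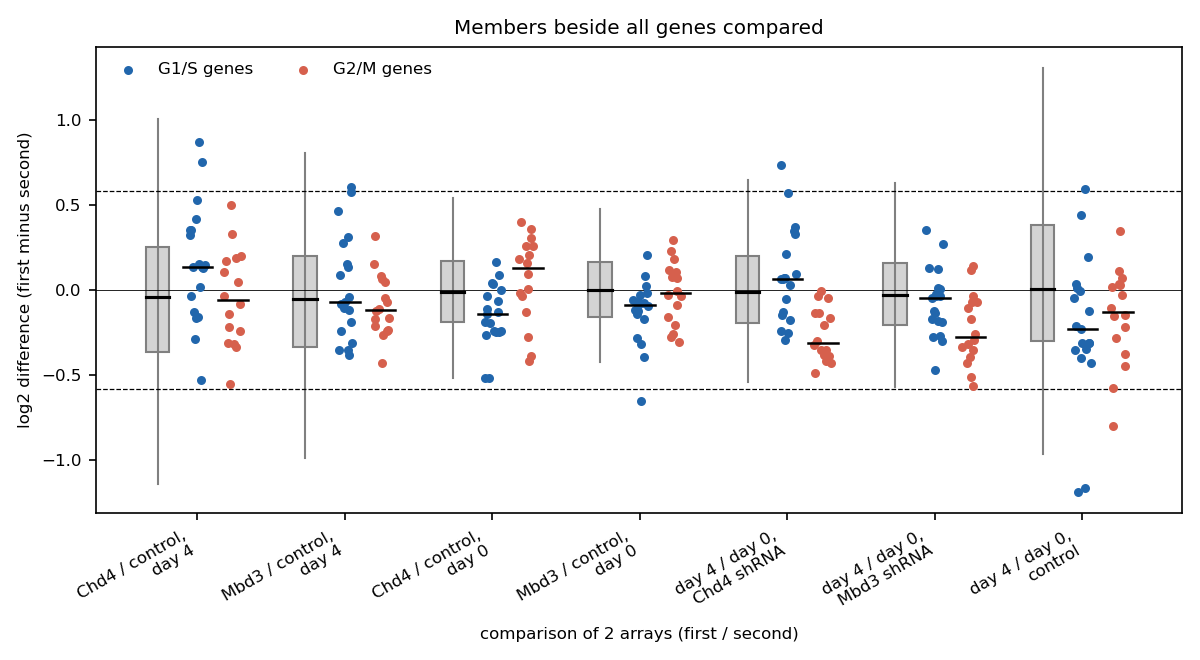
Log2 difference of each G1/S gene (blue) and G2/M gene (red) in the 7 comparisons, with a black line at the median of each list. Grey boxes span the quartiles of all genes compared and grey lines their 5th to 95th percentiles, and dashed lines mark 1.5-fold. All red points of the Chd4 line between day 4 and day 0 lie below 0, with a median of -0.31.

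Lists of further genes with the same roles were counted in the same way, and 43 other replication genes and 54 other mitosis genes were measured. Of the 54 mitosis genes, 45 were lower at day 4 than at day 0 in the Chd4 line (51.5% of all genes), 47 in the Mbd3 line (54.3%) and 33 in control (49.8%). Their medians were -0.20, -0.17 and -0.11, and centring left 28 lower in control with a median of -0.05. Of the 43 replication genes, 10 were lower in the Chd4 line, 25 in the Mbd3 line and 22 in control, with medians of 0.11, -0.05 and -0.02, the last 0.05 after centring. At 1.5-fold, 4 replication genes were higher and 0 lower between days in the Chd4 line, 1 and 0 in the Mbd3 line, and 2 and 2 in control. For the mitosis genes these counts were 1 higher and 3 lower in the Chd4 line, 1 and 2 in the Mbd3 line and 3 and 4 in control. Of all genes compared, 6.21% were higher and 4.27% lower in the Chd4 line. The shares were 5.69% and 4.76% in the Mbd3 line, and 17.3% and 11.2% in control.

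Against control at day 4, 3 of the 43 other replication genes were higher and 1 lower in the Chd4 line (11.1% and 15.4% of all genes), and 0 were called in the Mbd3 line (8.04% and 13.2%). At day 0, 2 were lower in the Chd4 line (3.56% of all genes) and 1 in the Mbd3 line (2.04%). In either line 0 were higher at day 0, beside 4.03% and 2.95% of all genes. Pold2, a subunit of DNA polymerase delta, had 363 in the Chd4 line, 364 in the Mbd3 line and 471 in control at day 4, and 153, 318 and 498 at day 0. The Chd4 line at day 0 was the lowest of the 6 arrays, at -1.70 against control. Tk1, the thymidine kinase of the salvage pathway, had 310.1 in the Chd4 line, 247 in the Mbd3 line and 234 in control at day 4, and 154, 204 and 251 at day 0. Like Cdc6, it was lowest in the Chd4 line at day 0 and highest there at day 4 (1.01 between days). Rpa1, which coats single-stranded DNA, was 0.73 and 0.51 higher than control at day 4 in the Chd4 and Mbd3 lines. Rfc5, a subunit of the clamp loader, was lower at day 4 than at day 0 in control (-0.77) and within 0.19 of 0 in the knockdown lines.

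Of the 54 other mitosis genes, 3 were higher and 4 lower in the Chd4 line against control at day 4 (11.1% and 15.4% of all genes). In the Mbd3 line these counts were 1 and 4 (8.04% and 13.2%). At day 0, 1 was higher and 0 lower in the Chd4 line (4.03% and 3.56%). In the Mbd3 line 0 were higher and 1 lower at day 0 (2.95% and 2.04%). Mybl2, the MYB protein that activates mitotic genes with the MuvB complex, had the largest difference of this list. Its intensity was 1477 in the Chd4 line, 1331 in the Mbd3 line and 728 in control at day 4, and 2091, 2202 and 2387 at day 0. It was lower at day 4 in each line, by -0.50, -0.73 and -1.71 in the Chd4, Mbd3 and control lines, and control at day 4 was the lowest array, as for Ccne1 and Orc1. Cep55, a protein of the midbody, was lower at day 4 in control (-1.04) and was at -0.18 and -0.22 in the Chd4 and Mbd3 lines. Cdc25b, a phosphatase that activates CDK1, had 91.9 in the Chd4 line, 108 in the Mbd3 line and 189 in control at day 4, and 117, 93.6 and 89.0 at day 0. Cenpk, a protein of the inner kinetochore, was higher at day 4 in all lines, by 0.65, 0.49 and 1.18.

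Inhibitors of cyclin-dependent kinases and repressing E2Fs were counted as well, since they act on both groups of genes, and 19 of 20 measured entered each comparison. Against control at day 4, 1 was higher and 5 lower in each knockdown, beside 11.1% higher and 15.4% lower of all genes in the Chd4 line and 8.04% and 13.2% in the Mbd3 line. At day 0, 3 were higher and 1 lower in the Chd4 line, beside 4.03% and 3.56%, and 2 higher and 0 lower in the Mbd3 line, beside 2.95% and 2.04%. By day, 2 were higher and 2 lower at day 4 in the Chd4 line, 1 and 0 in the Mbd3 line, and 5 and 1 in control, beside 6.21% and 4.27%, 5.69% and 4.76%, and 17.3% and 11.2% of all genes. Cdkn1b, the inhibitor p27, had 84.8 in the Chd4 line, 142 in the Mbd3 line and 236 in control at day 4, and 177, 108 and 98.1 at day 0. Cdkn1c, the inhibitor p57, had 129, 148 and 282 on the Chd4, Mbd3 and control arrays at day 4, and 79.6, 60.0 and 76.3 at day 0. For both genes the control array at day 4 was the brightest of the 6. The repressors E2f5 and E2f6 lay below control at day 4 as well, by -1.35 and -1.26 in the Chd4 line and by -1.04 and -1.10 in the Mbd3 line. At day 0, E2f6 was above control, by 1.09 in the Chd4 line and 0.63 in the Mbd3 line. Cdkn1a, the inhibitor p21, was chosen after its values were seen: it was above control by 0.69 at day 4 and 0.77 at day 0 in the Chd4 line, and by 0.61 and 0.60 in the Mbd3 line.

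**Figure D5:**
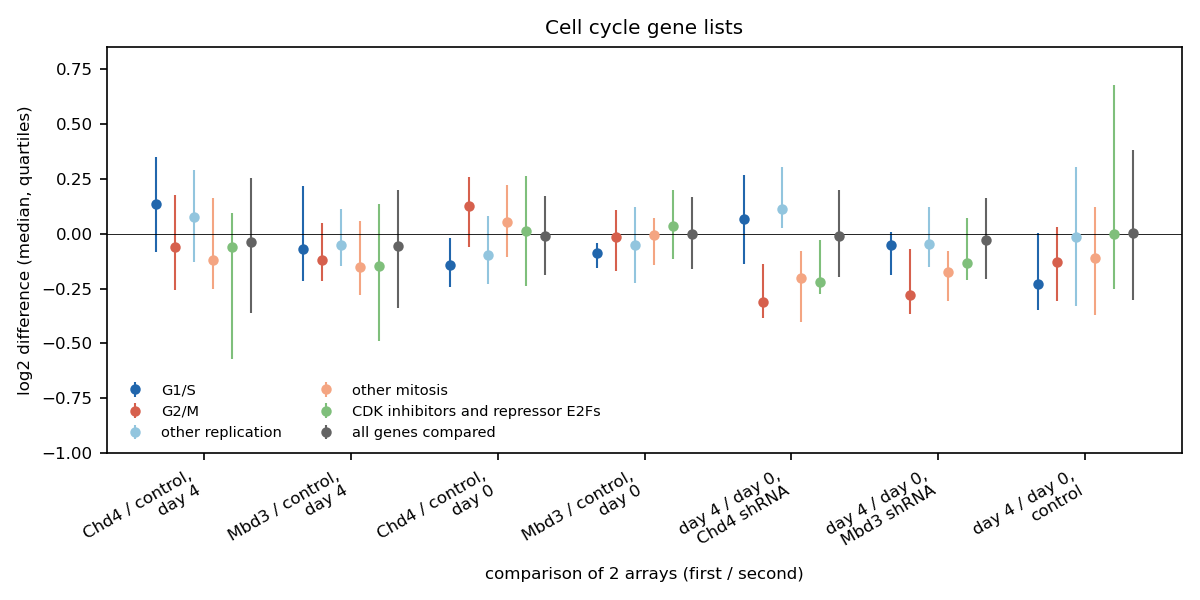
Median log2 difference (points) and quartiles (lines) of 5 gene lists and of all genes in the 7 comparisons of 2 arrays. Between day 4 and day 0 in the Chd4 line, the medians of the G2/M genes (-0.31) and the other mitosis genes (-0.20) lie below 0 and those of the G1/S genes (0.07) and the other replication genes (0.11) above it.

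An additive fit with limma over all 6 arrays (line and day as terms, 2 residual degrees of freedom) set effects shared by the lines or days against the departure from additivity. At a Benjamini-Hochberg adjusted p under 0.05 it called 0 of 13037 genes (0%) for Chd4 against control, for Mbd3 against control and for day 4 against day 0. An unadjusted p under 0.05 was given to 1023 genes (7.85%) for Chd4, 650 (4.99%) for Mbd3 and 1978 (15.2%) for day, and to 1, 2 and 7 of the 35 members (2.86%, 5.71% and 20%). For Chd4 the member was Aurkb, at -0.47 on the log2 scale (SE 0.14, limma adjusted p = 0.614), below control on both days. For Mbd3 they were Rrm2, at -0.48 (SE 0.17), and E2f2, at -0.38 (SE 0.14), both with a limma adjusted p of 0.837. The fit used only the brighter probe set of Rrm2, whose day 0 differences shrank with the mean of both, as given above. For day the members were Cdc20, Rrm1, Aurka, Bub1b, Ccnb2, Mcm5 and Orc1, of which all but Rrm1 were lower at day 4. Cdc20 had the lowest adjusted p of the members, at -0.57 (SE 0.14, limma adjusted p = 0.228), and was lower in 3 of 3 lines. Ccne1, which differed between days mainly in control, is not among the 7.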

How the data were processed

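Total RNA of 6 samples was labelled with biotin and read on 1 Mouse Gene 2.0 ST array each. The deposited values are intensities of probe sets on a linear scale, from 17.4 to 7980. The submitters' processing notes name RMA, and the series design text GeneSpring GX 12.6.1. RMA includes a quantile step that makes the arrays' distributions alike, so a shift shared by most genes would not show. No source used here states a constant added by the authors; one would shrink folds of dim genes. The number of arrays limits the precision.

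Of 34351 probe sets, 23521 carried 1 symbol, 1814 several and 9016 none; 23328 of the first kind matched RefSeq by gene ID. Groups follow the labels. Differences of log2 intensities were taken between 2 arrays in 7 comparisons, with Python 3.11.15 (numpy 2.4.6, pandas 2.3.3). The additive model used limma 3.58.1 in R 4.3.3 on genes at least as bright, on average, as the median probe set, and was tested on simulated data. Nothing says that samples came from separate cultures, so its p-values measure only the spread between these arrays. Promoter windows are RefSeq's on GRCm38.p6; a gene with several windows counts once. The members and lists were chosen with earlier results of these data known.

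Members past 1.5-fold in at least 1 comparison, and Pcna, Mki67 and Cdk1, are given array by array. From each further list, up to 4 genes with the largest differences are named, and Cdkn1a was added outside this rule after its values were seen. Alternatives subtracted 16, set a floor at the highest array median (41.4), centred arrays on their medians, dropped the filter on dim genes, averaged probe sets or used 2-fold. The model was also run with trend and robust moderation and without each pair of arrays.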

Additional observations from a re-analysis of the deposited data

Results flagged for a closer look

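3 differences of members between lines or days ran in opposite directions and lay at least 1 apart on the log2 scale. Cdc6 in the Chd4 line was at 0.53 against control at day 4 and at -0.52 at day 0, which are 1.04 apart. The same 4 arrays give the second view of this gene, 0.73 between day 4 and day 0 in the Chd4 line and -0.31 in control, again 1.04 apart. Ccne1 in the Chd4 line was at 0.87 against control at day 4 and at -0.25 at day 0, which are 1.12 apart. With 1 array a group none of these differences was tested.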

How the results depend on the processing

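Centring the arrays moved several list medians: the G2/M median between days in control was -0.06 (-0.13 as reported), the G1/S median in the Mbd3 line at day 4 was -0.12 (-0.07), and the G2/M median in the Mbd3 line at day 0 changed sign to 0.02 (-0.02). Several counts at 1.5-fold moved by 1 or 2 genes. With a 2-fold threshold the count of G1/S genes fell to 0 for those higher in the Chd4 line at day 4 (2 at 1.5-fold), higher in the Mbd3 line at day 4, lower in the Mbd3 line at day 0, and higher between days in the Chd4 line and in control (1 each at 1.5-fold), and likewise to 0 for the 1 G2/M gene lower between days in control; Orc1 and Ccne1 kept their 2-fold difference in control. With the mean of all probe sets, 0 G1/S genes were lower in the Mbd3 line at day 0. With 16 subtracted, 2 G1/S genes were higher in the Mbd3 line at day 4, 1 G2/M gene was lower in the Chd4 line at day 4 and 2 were lower between days in control. With arrays centred, these counts were 0 G1/S genes higher in the Mbd3 line at day 4, 2 higher between days in the Chd4 line, 1 G2/M gene lower in the Chd4 line at day 4 and 1 lower between days in the Mbd3 line. Ccne1 at 1.49-fold and Orc1 at 1.52-fold in the Mbd3 line at day 4 lie next to the threshold; otherwise the cause was not tested. The limma fit of day called between 0 and 671 of 13037 genes when 1 pair of arrays was left out. It called 671 without the control pair, of which 0 were members, and 0 without either knockdown pair. At that share of genes, 0 of 35 members says little about them. The other limma alternatives called 0 genes in each contrast. With no replicates, no difference between 2 arrays has an estimate of error, whether under or past 1.5-fold. The dim members, E2f2 and Orc1 among them, depend most on an added constant.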
